A study of Mus musculus with 24 samples.

Results

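The regions described here were snATAC-seq peaks (intervals of open chromatin) whose signal was nearly level across the cell groups of the ventral hippocampus. They were chosen by their summed counts: 4 libraries were added up for 6 groups of nuclei, each sum was scaled to CPM (the peak's share of all counts of the group, in ppm), and a peak was kept if it had at least 5 CPM in every group and its highest group was at most 2 times its lowest. There were 11712 such even peaks among 300776 peaks on chromosomes. The same values chose the peaks, so their levels over the 6 groups are a description and carry no test. A further 7867 peaks had at least 5 CPM in every group but exceeded the 2-fold limit. They are called uneven peaks below and serve as the comparison, because they are also open in all groups. They were less open, with a median of 8.58 CPM in the lowest group beside 17.0 CPM for even peaks, so the 2 sets differ in level too.

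The tissue came from adult male mice of the inbred strains C57BL/6J (B6) and DBA/2J (D2), aged 10 to 16 weeks, and the animals carried no engineered allele and received no treatment named in the labels. Each strain had 2 snATAC-seq replicates and 2 snRNA-seq replicates, each combining about 2 animals. The groups were granule neurons of the dentate gyrus (Exc-DG), pyramidal neurons of CA1 and CA3, inhibitory neurons of medial ganglionic origin (Inh-MGE), inhibitory neurons of caudal ganglionic origin together with Inh-Lamp5 (Inh-CGE/Lamp5), and non-neuronal cells (NN). Group sums of snATAC-seq counts ranged from 6736466 for NN, with 574 nuclei, to 141356569 for CA1, with 8882 nuclei. snATAC-seq nuclei were not enriched on NeuN, whereas snRNA-seq nuclei were, with NN making up 10352 of 30880 nuclei in the snRNA-seq table.

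Open chromatin is DNA that a transposase can enter, and most of it lies at promoters, where transcription begins, and at enhancers, which act at a distance. Promoters of genes that every cell needs are often CpG islands and are open in most tissues. Binding sites of CTCF, a zinc finger protein that with cohesin shapes chromatin loops, and tRNA genes, which RNA polymerase III transcribes from promoters inside the gene, are also known for being shared between cell types.

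The sequences below show the kinds of DNA that recurred among the even peaks. The first set lies at starts of protein-coding genes, with capitals marking the letters searched for: CCGGAAG for the ETS family, GCGCATGC for NRF1, TGACGTCA (the cyclic AMP response element, CRE) for CREB and ATF factors, and TCTCGCGA for ZBTB33. They are the most even peaks holding each match with 25 bases on either side free of annotated exons, read from GRCm38, the build the study calls mm10.
Grik2, ETS, chr10:49782900-49782956, reverse strand: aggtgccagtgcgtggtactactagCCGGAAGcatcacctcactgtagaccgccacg
Zfp330, ETS, chr8:82774209-82774265, forward strand: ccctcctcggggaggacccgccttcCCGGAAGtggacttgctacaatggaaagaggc
Surf6, ETS, chr2:26902900-26902956, forward strand: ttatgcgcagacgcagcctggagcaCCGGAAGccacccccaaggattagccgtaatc
Shcbp1, ETS, chr8:4779214-4779270, forward strand: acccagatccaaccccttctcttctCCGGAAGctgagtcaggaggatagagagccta
Vps33a, NRF1, chr5:123573093-123573150, forward strand: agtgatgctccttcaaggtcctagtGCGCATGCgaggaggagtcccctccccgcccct
Elof1, NRF1, chr9:22117252-22117309, forward strand: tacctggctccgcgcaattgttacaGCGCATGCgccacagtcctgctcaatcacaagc
Plk2, CRE, chr13:110394957-110395014, forward strand: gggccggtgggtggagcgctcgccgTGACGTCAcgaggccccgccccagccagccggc
Zfp938, CRE, chr10:82240935-82240992, forward strand: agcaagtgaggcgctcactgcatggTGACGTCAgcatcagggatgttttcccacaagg
Ribc2, Smc1b, ZBTB33, chr15:85131997-85132054, forward strand: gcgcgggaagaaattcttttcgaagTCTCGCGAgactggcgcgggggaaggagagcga
Ankfy1, ZBTB33, chr11:72689931-72689988, forward strand: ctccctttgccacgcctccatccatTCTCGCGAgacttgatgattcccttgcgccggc

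The second set shows matches to the CTCF motif in the most open even peaks over 2000 bases from any annotated start, printed on the strand of the match so that the capitals line up.
CTCF match in Mical3, chr6:121130220-121130283, reverse strand: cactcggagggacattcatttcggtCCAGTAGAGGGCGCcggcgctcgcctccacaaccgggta
CTCF match in Rcc2, chr4:140714003-140714066, reverse strand: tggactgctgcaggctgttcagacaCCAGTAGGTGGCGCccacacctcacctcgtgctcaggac
CTCF match between genes, nearest start Gm12125, chr11:36001464-36001527, reverse strand: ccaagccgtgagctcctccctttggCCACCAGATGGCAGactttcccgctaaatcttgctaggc
CTCF match in Iqcd and Rita1, chr5:120605881-120605944, reverse strand: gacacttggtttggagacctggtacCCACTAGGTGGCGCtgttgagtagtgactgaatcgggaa
CTCF match in Srrm3, chr5:135806729-135806792, reverse strand: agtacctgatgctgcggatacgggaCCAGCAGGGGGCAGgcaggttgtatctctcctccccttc
CTCF match between genes, nearest start Gm23154, chr4:87368228-87368291, forward strand: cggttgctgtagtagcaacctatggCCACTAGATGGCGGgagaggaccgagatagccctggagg

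The third set shows tRNA genes, in capitals, with 25 flanking bases, from the most open even peaks that hold one (a single tRNA of each amino acid).
tRNA-Arg gene n-TRcct1, chr6:38533906-38534028, forward strand: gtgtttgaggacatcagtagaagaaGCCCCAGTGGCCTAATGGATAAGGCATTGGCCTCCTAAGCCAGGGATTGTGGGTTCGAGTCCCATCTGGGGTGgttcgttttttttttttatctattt
tRNA-Leu gene n-TLaag8, chr14:51063858-51063989, forward strand: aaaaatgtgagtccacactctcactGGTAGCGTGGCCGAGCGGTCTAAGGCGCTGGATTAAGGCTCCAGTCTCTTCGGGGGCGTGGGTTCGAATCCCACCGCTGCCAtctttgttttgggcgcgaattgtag
tRNA-Tyr gene n-TYgta9, chr5:30888058-30888196, forward strand: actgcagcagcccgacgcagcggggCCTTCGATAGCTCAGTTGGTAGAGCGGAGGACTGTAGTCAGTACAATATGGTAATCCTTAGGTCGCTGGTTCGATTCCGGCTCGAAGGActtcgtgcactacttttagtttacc
tRNA-Thr gene n-TTtgt1, chr14:51088625-51088747, forward strand: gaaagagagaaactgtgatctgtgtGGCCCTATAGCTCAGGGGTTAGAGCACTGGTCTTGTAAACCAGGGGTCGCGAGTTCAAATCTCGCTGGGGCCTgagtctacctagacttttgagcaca

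Even did not mean identical. The ratio of the highest to the lowest group had a median of 1.65 among even peaks (quartiles 1.49 and 1.81), and the CPM in the lowest group had a median of 17.0 (quartiles 8.72 and 26.5). NN was the highest group at 6256 even peaks (53.4%), and CA3 was the lowest at 6909 (59.0%). The even peaks took 35.9% of NN counts, 32.9% of Inh-CGE/Lamp5 counts, 32.7% of Inh-MGE counts, 28.4% of Exc-DG counts, 26.0% of CA1 counts and 24.4% of CA3 counts. The order of the groups within the 2-fold band thus followed a shared direction, with inhibitory neurons and NN above the excitatory groups. This direction was not particular to even peaks. Uneven peaks took 20.5% of NN counts, 17.9% in both inhibitory groups, 15.1% in Exc-DG, 13.9% in CA1 and 13.2% in CA3. NN was the highest group at 45.9% of uneven peaks. These levels depend on the scaling. TMM factors, which set the bulk of peaks equal between groups, ran from 0.821 for NN to 1.11 for CA3 and left 6208 even peaks, of which 5345 were among the 11712.

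The plot of level against ratio shows how the limits fell in the data. Just inside the 5 CPM limit were a peak in an intron of Prkar2b (5.002 CPM in its lowest group) and one 992 bases from Col13a1 (5.002 CPM), and just outside was a peak in an intron of Mgll (4.994 CPM). Just inside and just outside the ratio of 2 were the start of Rngtt, from 14.5 CPM in CA3 to 29.1 CPM in NN, and the start of Impdh1, from 12.8 CPM in CA3 to 25.7 CPM in Inh-MGE. A peak at 1700048O20Rik fell inside and a peak in an intron of Trio outside. No gap separated even from uneven peaks at either limit.

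**Figure D1:**
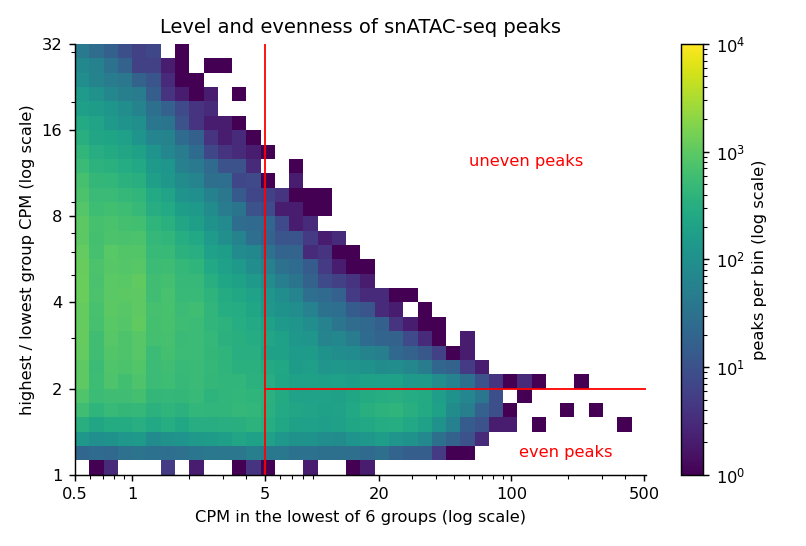
Each bin counts peaks by their CPM in the lowest of the 6 groups (horizontal, log scale) and by the ratio of the highest to the lowest group (vertical, log scale), and colour gives the number of peaks on a log scale, for 144861 peaks. The red lines mark 5 CPM and the ratio of 2, and the 11712 even peaks lie right of the first and below the second; peaks under 0.5 CPM, over a ratio of 32 or beyond the right end of the axis are not drawn.

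The most open even peak lay at chr17:39842995-39848781, over the starts of Gm42418, AY036118 and Gm26917, a locus with ribosomal RNA sequence. It had 4290 CPM in Exc-DG, 4910 CPM in CA1, 4470 CPM in CA3, 8160 CPM in Inh-MGE, 8370 CPM in Inh-CGE/Lamp5 and 5100 CPM in NN. Per length this was 742 CPM per kb in the lowest group, beside 28.4 to 466 CPM per kb for the next 4. The next were an intergenic peak near the end of chromosome 19 (chr19:61265367-61267254, 366 to 571 CPM), a peak inside Gm36264 (chr13:9011583-9012220, 298 to 473 CPM), a start of Sfi1, which encodes a centrosome protein (chr11:3192223-3193882, 185 to 300 CPM), and an intergenic peak at chr6:47646704-47651606 (139 to 203 CPM). Soft-masked repeats made up 58.3% of the peak in Gm36264 but 4.22% to 26.2% of the other 4. Over all even peaks, 23 were more than 50% repeat (0.196%, beside 5.25% of all peaks). Whether reads of near-identical copies elsewhere add to the levels of these 5 peaks was not tested.

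The most even peak was at the start of Gm7457, with 8.03 CPM in Exc-DG, 8.41 CPM in CA1, 8.46 CPM in CA3, 8.09 CPM in Inh-MGE, 8.23 CPM in Inh-CGE/Lamp5 and 8.02 CPM in NN, a ratio of 1.055. The next were the shared start region of Ubl5, a ubiquitin-like protein, and Fbxl12, an F-box protein (14.4 to 15.8 CPM, ratio 1.097), the start of Gm17767 (8.93 to 9.81 CPM, ratio 1.098), a start of Grik2, a kainate receptor subunit of neurons (18.9 to 20.9 CPM, ratio 1.106), and the start of Praf2 (18.8 to 20.9 CPM, ratio 1.114). All 5 held an annotated start. The ETS match at Grik2 is the first sequence printed above.

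Most even peaks were promoters. An annotated start lay inside 7755 of 11712 even peaks (66.2%, exact binomial 95% interval 65.3% to 67.1%, counting error only), in 52.6% of uneven peaks and in 6.18% of all peaks. A further 641 even peaks were within 2000 bases of a start, and 3316 (28.3%) were farther away. Of 14745 peaks at starts of protein-coding genes, 49.9% were even and 25.9% uneven. Of 1213 peaks that held starts of 2 or more protein-coding genes, as at divergent promoters, 938 were even (77.3%) and 224 uneven (18.5%). Among peaks with a start, such peaks made up 12.1% of even and 5.41% of uneven ones. With TMM-scaled groups both orders turned: a start lay in 50.0% of even and 65.5% of uneven peaks, and starts of 2 or more protein-coding genes made up 8.69% and 10.2% of peaks with a start. A ratio limit of 1.5 also turned the share with a start (57.7% and 61.3%). Each of these shares with a start exceeded the 6.18% of all peaks.

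**Figure D2:**
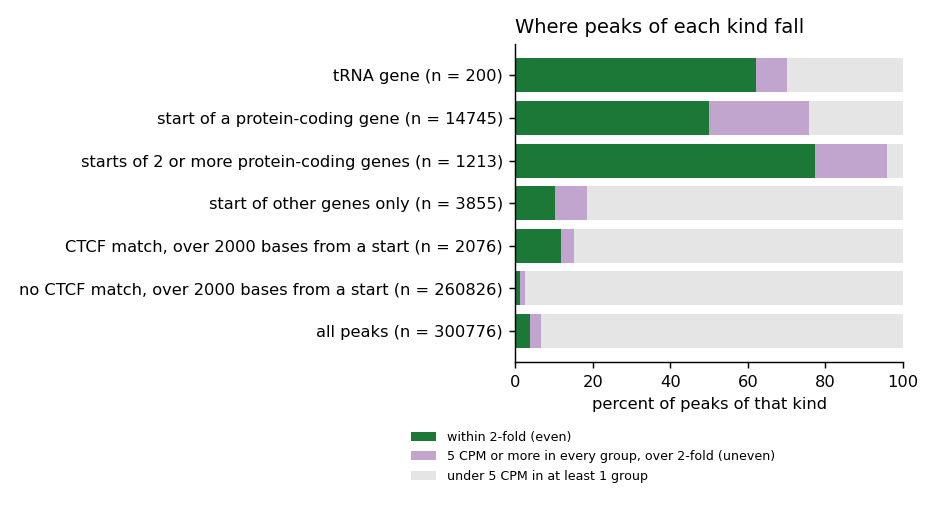
Bars divide the peaks of each kind into even peaks (green), uneven peaks (purple) and peaks under 5 CPM in at least 1 group (grey), in percent of that kind, with the number of peaks beside the name. Even peaks take 62.0% of peaks with a tRNA gene and 77.3% of peaks with starts of 2 or more protein-coding genes, beside 3.89% of all peaks.

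CpG content followed the starts. Even peaks had a median of 43.5 CpG per kb (quartiles 22.9 and 61.4), uneven peaks 34.4 and all peaks 10.5. Of the even peaks, 4876 (41.6%) lay in 2-kb windows above 40 CpG/Kb, a density typical of CpG islands, beside 37.7% of uneven and 3.18% of all peaks. Among peaks with a start, even peaks had a median of 53.6 and uneven peaks of 56.9 CpG per kb, and far from starts the medians were 17.9 and 17.2. With TMM-scaled groups the medians over all even and all uneven peaks were 29.4 and 45.8 CpG per kb, so that the order of the sets turned here as well, as it did with a minimum of 10 CPM (52.0 and 57.6) and a ratio limit of 1.5 (35.4 and 42.2). Peak length was similar, with medians of 1457 bases in even and 1525 in uneven peaks, against 534 in all peaks.

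Motifs were counted in the central 300 bases of each peak on both strands. Among peaks with a start, the ETS match was in 13.9% of even, 8.31% of uneven and 8.81% of all peaks. The NRF1 match was in 3.56%, 2.10% and 2.23%, the CRE match in 2.40%, 1.04% and 1.47%, the ZBTB33 match in 1.73%, 0.870% and 0.957%, and the YY1 match (AAGATGGC) in 4.0%, 2.66% and 2.76%. Even promoters thus held these matches more often than uneven ones with plain CPM, and with TMM-scaled groups the order turned for all 5, for example 11.6% of even and 12.1% of uneven promoters for ETS and 0.644% and 1.71% for ZBTB33. The GC box of SP and KLF factors (GGGGCGG) was in 34.0% of even, 39.2% of uneven and 27.4% of all peaks with a start, and it stayed lower in even peaks with TMM-scaled groups (25.9% and 39.2%) but not over the 5 neuron groups alone (35.6% and 34.4%). The ETS order also held with a minimum of 10 CPM (14.3% and 9.85%) and a ratio limit of 1.5 (15.6% and 11.3%), while the latter turned NRF1 (2.86% and 3.08%), ZBTB33 (0.842% and 1.53%) and YY1 (3.2% and 3.59%).

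The remaining motifs were counted at starts in the same way. The CCAAT box of NFY (GCCAATC) was in 6.09% of even and 4.78% of uneven promoters, the ZNF143 match (CTACAATTC) in 0.438% and 0.193%, the E-box of USF and TFE factors (TCACGTG) in 3.73% and 3.65%, the EGR match (GTGGGCG) in 12% and 12.1%, and the TATA box (TATAAAAG) in 0.426% and 0.314%. The SOX match (ACAATGG) was in 1.64% and 2.15%, the NFI match (TTGGCAC) in 2.08% and 1.98%, and the MEF2 match (TATTTATAG) in 0.181% and 0.145%. The ZNF143 shares rested on 34 even and 8 uneven peaks. The motifs of this paragraph were not recounted at starts with TMM-scaled groups or other limits. A window can count for more than 1 motif.

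Far from starts the picture was different. A CTCF match lay in 244 of 3316 even peaks over 2000 bases from a start (7.36%), in 2.11% of such uneven peaks and in 0.790% of all such peaks. Even peaks held it more often than uneven peaks with TMM-scaled groups too (5.53% and 3.06%), and with a minimum of 10 CPM, a ratio limit of 1.5 and the 5 neuron groups alone. At starts the CTCF match was rare in both sets (0.297% and 0.411%). AP-1 and an E-box, matches of factors known for activity-dependent or neuronal enhancers, were less frequent in even than in uneven peaks far from starts. The CRE match was not (0.663% and 0.52%, resting on 22 and 17 peaks). AP-1 (TGANTCA), the site of FOS and JUN, was in 8.99% and 12.4%, and the E-box of NEUROD and related factors (CAGATGG) was in 9.08% and 12%. All peaks far from starts held them in 15.2% and 14.1%. The order was unchanged with TMM-scaled groups (10.0% and 12.3% for AP-1, 10.8% and 11.7% for the E-box).

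**Figure D3:**
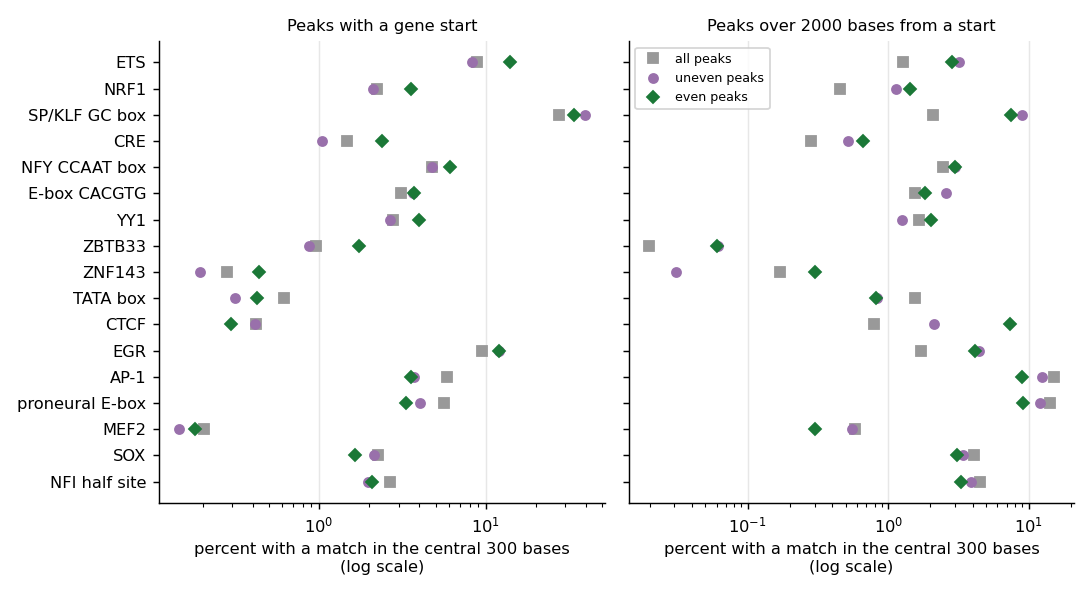
Points give the percent of peaks (log scale) with at least 1 match to each of 17 motifs in the central 300 bases, for even peaks (green diamonds), uneven peaks (purple circles) and all peaks (grey squares), at gene starts on the left and over 2000 bases from any start on the right. CTCF stands out on the right, at 7.36% of even and 2.11% of uneven peaks.

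The 6 CTCF matches printed above come from peaks with 16.5 to 28.5 CPM in their lowest group. The one in Mical3 had 31.9 CPM in Exc-DG, 36.5 in CA1, 33.6 in CA3, 46.7 in Inh-MGE, 48.0 in Inh-CGE/Lamp5 and 28.5 in NN. The intergenic one on chromosome 4 was the most even of the 6, from 16.5 CPM in Exc-DG to 20.05 CPM in CA1. The other 4, chosen like these after their values were seen, had ratios from 1.261 to 1.677. With plain CPM, most genes for CTCF and its partners in cohesin started in even peaks too. Of 10 genes for CTCF and cohesin, 8 started in an even peak. Stag1 (ratio 2.22) and Stag2 (ratio 2.33), alternative subunits of the cohesin ring, started in uneven ones. NN was the highest group at all 8 even starts, and TMM scaling raises NN further. These genes were not recounted with TMM-scaled groups.

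Of the 6 kinds of peaks compared, those with tRNA genes had the highest share of even peaks among those open everywhere. RefSeq places 403 tRNA genes on the chromosomes, and 200 peaks contained at least 1 of them. Of these 200 peaks, 124 were even and 16 uneven, against 11712 and 7867 over all peaks. Thus 88.6% of the tRNA peaks that reached 5 CPM in every group were even, beside 59.8% of all peaks that did. The 124 even peaks held 182 tRNA genes, and 68 of the peaks were over 2000 bases from any GENCODE start. tRNA peaks remained more frequent among even than among uneven peaks with TMM-scaled groups (78 and 65 peaks, 1.26% and 0.486% of each set) and with a ratio limit of 1.5 (1.94% and 0.485%). Peaks with tRNA genes were looked at after their values were seen.

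The most open of them held the printed arginine tRNA gene beside the start of Fmc1, with 92.8 CPM in Exc-DG, 84.2 in CA1, 80.1 in CA3, 97.9 in Inh-MGE, 101 in Inh-CGE/Lamp5 and 128 in NN. A peak on chromosome 14 with 3 tRNA genes, the printed leucine tRNA among them, had 67.2 CPM in CA3 to 103 CPM in NN and was also the fourth most open even peak far from starts. The fifth was an intergenic peak at chr13:84347163-84349943, 7050 bases from Gm26927, with 58.1 CPM in Exc-DG to 87.3 CPM in NN. In both peaks NN was the highest group.

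Genes of basic cell functions mostly started in even peaks with plain CPM. The gene lists were not recounted with TMM-scaled groups. Of 21924 protein-coding genes, 8178 (37.3%) had a start in an even peak and 3720 more in an uneven peak only. The share was 86.6% for the 82 ribosomal protein genes, 88.5% for the 78 mitochondrial ribosomal protein genes, 83.8% for the 80 subunit genes of the respiratory chain, 86.5% for the 37 spliceosome genes, 83.7% for the 43 subunits of RNA polymerase II and Mediator, 77.5% for the 40 proteasome genes and 75.7% for the 37 translation initiation factors. All 7 genes of the TCP-1 chaperonin, which folds actin and tubulin, started in even peaks. Of the 78 ribosomal protein genes with a peak at a start, the 7 that were not even were uneven, so that all 78 were open in every group.

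Of 15 genes often used as references in expression assays, 12 started in even peaks with plain CPM. Hprt, a purine salvage enzyme, was the most even, with 17.9 CPM in Exc-DG, 17.8 in CA1, 16.7 in CA3, 20.8 in Inh-MGE, 19.3 in Inh-CGE/Lamp5 and 21.7 in NN (ratio 1.30). Sdha, a subunit of succinate dehydrogenase, had a ratio of 1.56, Tfrc 1.69, Tbp, the TATA-binding protein, 1.74, and Gapdh, a glycolytic enzyme, 1.75. B2m (1.76), Eef1a1 (1.80), Ppia (1.86), Pgk1 (1.97), Rplp0 (1.97) and Ywhaz (1.98) came closer to the limit. Actb, cytoplasmic actin, was uneven (57.6 CPM in CA3, 126 CPM in NN, ratio 2.19). Gusb, a lysosomal enzyme, fell below 5 CPM in CA1 (4.59 CPM, 23.8 CPM in NN).

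Of 33 marker genes of the groups, 2 started in an even peak. Their start peaks were set beside the group labels, which some followed and others did not. The authors transferred these labels from snRNA-seq through snATAC-seq counts over gene bodies and the bases upstream. Agreement at a marker start is thus partly built in and is no independent check of the labels. The start peak of Lhx6, a factor of MGE-derived neurons, had 39.9 CPM in Inh-MGE and 16.2 in Inh-CGE/Lamp5 but 2.05 to 3.27 CPM elsewhere. Slc32a1, the GABA transporter of synaptic vesicles, had 38.7 and 34.9 CPM in the inhibitory groups and 1.92 to 3.41 CPM elsewhere. Neurod6, a factor of pyramidal neurons, had 19.2 CPM in CA1, 18.6 in CA3 and 0.981 to 2.82 CPM elsewhere. Mog, a myelin protein, had 6.98 CPM in NN and 0.373 to 1.18 CPM in neurons. Other start peaks were highest outside the labelled group. Prox1, a factor of granule neurons, had 21.2 CPM in Exc-DG but 27.9 CPM in NN, Wfs1, listed for CA1, had 21.3 CPM in CA1 but 61.9 CPM in NN, and Bok, listed for CA3, had 20.6 CPM in CA3 but 24.0 CPM in Inh-CGE/Lamp5. The start of Slc17a7, a glutamate transporter of excitatory neurons, had 12.7 to 15.0 CPM in excitatory groups, 4.6 CPM in NN and 2.01 to 2.37 CPM in inhibitory groups. Whether nuclei of other types in a group have a part in the evenness was not tested. Without NN, 16903 peaks met the rule over the 5 neuron groups. No peak held an annotated start of Aqp4 or Cx3cr1.

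The 2 exceptions were Nectin3, an adhesion molecule used as a CA3 marker, and Mbp, the myelin basic protein. The Nectin3 start peak had 48.5 CPM in Exc-DG, 47.0 in CA1, 66.3 in CA3, 49.3 in Inh-MGE, 57.1 in Inh-CGE/Lamp5 and 80.3 in NN (ratio 1.71). Its RNA had 252 CPM in CA3 and 11.5 to 63.2 CPM in the other groups. A start peak of Mbp had 13.7 to 23.1 CPM (ratio 1.69), and its RNA had 1160 CPM in NN and 37.5 to 121 CPM in neurons. Mbp has several annotated starts, and the RNA counts do not separate them.

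RNA levels were not part of the rule that chose the peaks. The labels of the snATAC-seq nuclei were transferred from snRNA-seq, however, so the 2 assays are not fully independent. Of 7337 protein-coding genes with a start in an even peak and at least 5 CPM of RNA in some group, 6431 (87.7%) reached 5 CPM in every group, beside 66.9% of 3298 genes with a start in uneven peaks only and 18.4% of 1264 genes with a start in other peaks only. Among those 6431 genes the RNA of 4098 (63.7%) stayed within 2-fold across the 6 groups, beside 37.5% of the 2205 genes of uneven peaks. The median RNA ratio was 1.72 and 2.52. An RNA range over 10-fold, after adding 1 CPM, was found for 171 genes of even peaks (2.33%) and 716 of uneven peaks (21.7%). With TMM-scaled snATAC-seq groups the shares within 2-fold were 51.8% and 59.0%, so that this order of even and uneven also turned, while with a ratio limit of 1.5 it was 64.2% and 55.5% and with a minimum of 10 CPM 64.3% and 41.8%. The NN group did not hold the same types in both assays: the snRNA-seq table lists a type NN-VLMC, with 515 of 10352 NN nuclei, and the snATAC-seq table used here lists NN-Astro, NN-MGC, NN-ODC and NN-OPC only. Without NN-VLMC, a setting added after seeing the data, the shares within 2-fold were 63.8% and 37.8%. Nuclei of the assays came from separate preparations, and levels of RNA and open chromatin are not on a common scale.

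Some genes nevertheless had an even start peak and a wide RNA range, and 6 are named here because their range was the largest among genes alone at an even peak with at least 20 CPM of RNA in the highest group. Bnc2, a zinc finger protein, had 6.08 to 8.16 CPM at its start (ratio 1.34), with RNA of 28.9 CPM in NN and 0.138 to 0.955 CPM in neurons. The lowest of these rested on 2 counts, and the NN to Inh-MGE ratio was 209 (exact conditional 95% interval 57.6 to 1730, counting error only). Of the 881 NN counts, 842 came from NN-VLMC, which the snATAC-seq groups do not hold, and without that type Bnc2 RNA in NN was 1.35 CPM, so that its wide range rested on NN-VLMC. Mboat1, an acyltransferase of phospholipids, had 6.41 to 12.2 CPM at its start and RNA of 35.6 CPM in NN and 0.207 CPM in Exc-DG. Tnc, the matrix protein tenascin C, had 6.48 to 12.1 CPM at its start and RNA of 93.7 CPM in NN and 0.555 to 3.04 CPM in neurons. For Mboat1 and Tnc NN was the highest group with 37.3 and 98.1 CPM without NN-VLMC, and Tnc RNA was mostly of NN-Astro (2713 of 2860 counts).

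Bace2, a protease, was highest in CA3, with 23.5 CPM of RNA there, 8.79 in CA1, 2.00 in NN, 1.06 in Exc-DG, 0.484 in Inh-MGE and 0.174 in Inh-CGE/Lamp5. Its start peak had 9.32 CPM in Exc-DG, 12.1 in CA1, 16.0 in CA3, 8.66 in Inh-MGE, 9.74 in Inh-CGE/Lamp5 and 13.5 in NN. The CA3 to Inh-CGE/Lamp5 ratio of its RNA was 135, with 2 counts in the lower group (interval 37.3 to 1120). Trim36, a ubiquitin ligase, had 26.2 CPM of RNA in NN and 0.232 CPM in Exc-DG over a start peak of 6.30 to 12.3 CPM. Trim36 RNA in NN was 27.5 CPM without NN-VLMC. Gpc5, a proteoglycan, was the most abundant of the 6, with RNA of 4740 CPM in NN (4970 CPM without NN-VLMC), 504 CPM in CA1 and 44.6 CPM in Exc-DG. Its start peak had 17.8 CPM in Exc-DG, 17.4 in CA1, 16.0 in CA3, 19.6 in Inh-MGE, 20.3 in Inh-CGE/Lamp5 and 28.8 in NN. In the peak of Bace2 the group with the most RNA was also the most open, within the 2-fold band. The same was true of Bnc2, Mboat1 and Gpc5 but not of Tnc and Trim36.

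**Figure D4:**
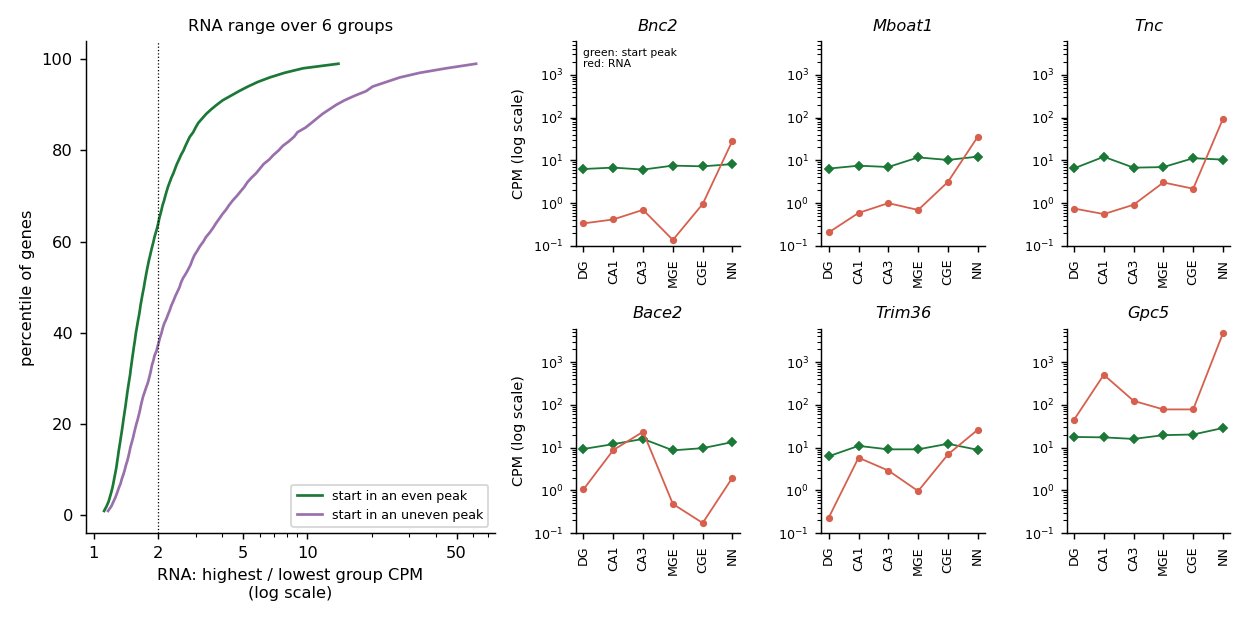
The left panel gives percentiles of the ratio of highest to lowest group in RNA (log scale) for genes at 5 CPM or more in every group, with a start in an even peak (green) or in an uneven peak only (purple); at the ratio of 2 the curves stand at 63.7% and 37.5%. The small panels give CPM (log scale) in the 6 groups for the start peak (green) and the RNA (red) of the 6 genes with an even peak and the widest RNA range, with NN-VLMC included in the RNA of NN; without it the NN value of Bnc2 is 1.35 in place of 28.9 CPM.

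Cell types that the rule left out were near the same levels. Exc-ENT, Exc-Gpc6 and Exc-Cdh12, named by the authors, are excitatory clusters with summed counts from 7488092 to 28860633. Adding Exc-ENT would have kept 11163 of 11712 even peaks (95.3%) within the 2-fold limit, Exc-Cdh12 10857 (92.7%) and Exc-Gpc6 10701 (91.4%). Against the geometric mean over the 6 groups, 98.8% (Exc-ENT), 98.1% (Exc-Cdh12) and 97.3% (Exc-Gpc6) of even peaks were within 2-fold. The shares of uneven peaks were 92.1%, 90.4% and 86.8%. These nuclei came from the same libraries as the 6 groups and are all excitatory.

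The strain contrast was not used to choose the peaks either. It was tested in Exc-DG, where the columns give 2 libraries of each strain, with edgeR's quasi-likelihood test on counts over 297387 peaks and Benjamini-Hochberg adjustment. Of the 11712 even peaks, 640 (5.46%) were higher and 213 (1.82%) lower in D2 at adjusted p under 0.05, beside 3.39% and 2.58% of all peaks tested. The uneven peaks, also at 5 CPM or more in every group, were called in 8.33% and 2.58%. Most changes of even peaks were small: 661 of the 853 called had an absolute log2 fold change under 0.5, and the median absolute value over all even peaks was 0.094, beside 0.108 in uneven and 0.252 in all peaks. The median log2 fold change of even peaks was 0.056, beside -0.001 over all peaks. The B6 libraries had 28.21% and 27.97% of their Exc-DG counts in even peaks, and the D2 libraries 28.91% and 28.43%. The part of this shift in the excess of higher calls was not tested. DESeq2 called 123 even peaks higher and 75 lower, and edgeR without B6 library 2 or 3 called 191 and 113, or 240 and 138.

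The calls were also counted by position. Even peaks at starts were higher at 465 (6.0%) and lower at 82 (1.06%), and those far from starts were higher at 140 (4.22%) and lower at 116 (3.50%), the latter near the shares of all peaks. In uneven peaks far from starts the excess was present, with 341 higher (10.4%) and 100 lower (3.06%), and at uneven starts 275 (6.64%) and 87 (2.10%). Even peaks above 40 CpG/Kb were higher at 322 (6.60%) and lower at 40 (0.820%), with a median log2 fold change of 0.072, and those at or below it were higher at 318 (4.65%) and lower at 173 (2.53%), with a median of 0.038. Of the 124 even peaks with a tRNA gene, 18 were higher and 2 lower in D2 (14.5% and 1.61%), all but 1 by under 0.5 on the log2 scale. Of the 244 with a CTCF match far from starts, 1 was higher and 6 lower (0.410% and 2.46%), the lower calls being near the 2.58% of all peaks. The differences between these subsets were not tested.

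A few even peaks were present in 1 strain and nearly absent in the other. Past an absolute log2 fold change of 2 there were 25 called even peaks of 11712, 14 higher and 11 lower in D2. Beside them were 11 of 7867 uneven peaks and 2562 of all 297387 peaks tested. Such changes were thus rarer in even peaks than over all peaks but more frequent than in uneven peaks. All peaks on chromosomes were far less open, with a median of 0.452 CPM in the lowest group. The 3 even peaks with the largest decreases had no read in either D2 library of Exc-DG. An intergenic peak at chr6:47747931-47748564, 33060 bases from Rny3, had normalized values of 21.9 and 19.0 CPM in the B6 libraries, at least 319-fold more than the limit of 3 counts over both D2 libraries (adjusted p = 5.46e-109, edgeR). The start of Zfp125 and 3110053B16Rik at chr12:20919755-20921618 had 13.2 and 12.8 CPM in B6 (at least 202-fold, adjusted p = 2.75e-83, edgeR). The start of 9430037G07Rik at chr9:88599029-88599820 had 12.4 and 12.1 CPM in B6 (at least 191-fold, adjusted p = 2.50e-80, edgeR). None of the 3 had a count in D2 in any of the 6 groups, while in B6 the chromosome 6 peak had 20.9 to 25.9 CPM over the groups.

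The 3 with the largest increases were near absent in B6. An intergenic peak at chrY:90728725-90729410 had no count in B6 in any group and 9.33 and 11.7 CPM in the D2 libraries of Exc-DG (at least 162-fold, adjusted p = 6.74e-74, edgeR), with 9.81 to 13.0 CPM over the groups in D2. A peak in an intron of Sfi1 at chr11:3159541-3159856 had 0 and 0.231 CPM in B6 and 16.6 and 19.5 CPM in D2 (log2 fold change 7.33 ± 0.25 SE, adjusted p = 3.69e-98, edgeR), and one over an Sfi1 exon at chr11:3132881-3133107 had 0.324 and 0.277 CPM in B6 and 14.5 and 13.9 CPM in D2 (5.53 ± 0.22 SE, adjusted p = 5.46e-80, edgeR). All 6 peaks thus met the rule on the sum of the strains while the signal came from 1 of them. Sequence of D2 that the reference lacks, or of B6 that D2 lacks, cannot be told apart here from closed chromatin.

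**Figure D5:**
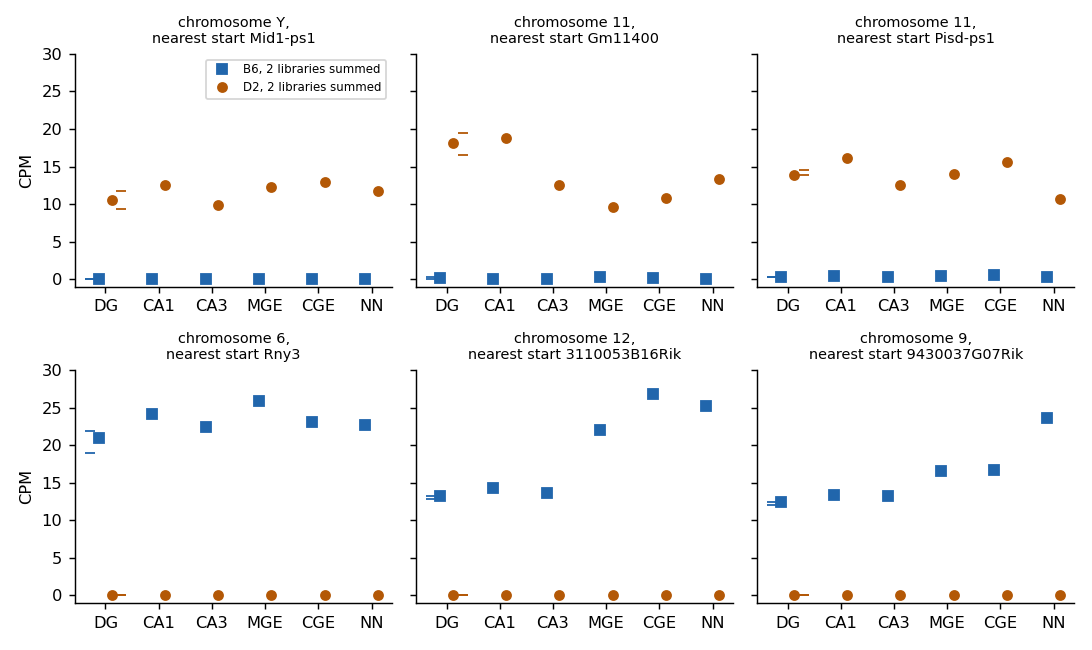
Each panel is 1 of the 6 even peaks with the largest strain differences in Exc-DG, with CPM in the 6 groups (DG, CA1, CA3, MGE, CGE for Inh-CGE/Lamp5, NN) summed over the 2 libraries of B6 (blue squares) and D2 (brown circles), and short dashes giving the single Exc-DG libraries after TMM. The top panels are near 0 in B6 and the bottom panels at 0 in D2 in every group.

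The Sfi1 locus held most of the increases. Of the 14, 8 lay within chr11:3126908-3193882, all higher in D2, at log2 fold changes from 2.86 to 7.33. They included the Sfi1 start, the fourth most open even peak, with Exc-DG values of 35.8 and 32.6 CPM in B6 against 455 and 415 CPM in D2 (log2 fold change 3.66). Sfi1 RNA moved the same way in the snRNA-seq libraries, from 43.0 and 42.3 CPM in B6 to 297 and 287 CPM in D2 (log2 fold change 2.77 ± 0.08 SE, adjusted p = 3.08e-12, edgeR). Other very open even peaks were also mostly signal of D2, with 119 and 111 CPM in B6 and 608 and 632 CPM in D2 for the peak near the end of chromosome 19, and 42.7 and 42.0 CPM in B6 and 277 and 272 CPM in D2 for chr6:47646704-47651606. Among the decreases, the start of Fggy, a carbohydrate kinase, had 19.0 and 19.4 CPM in B6 and 4.64 and 4.03 CPM in D2 (log2 fold change -2.16). Fggy RNA had 22.6 and 19.6 CPM in B6 and 5.36 and 5.61 CPM in D2 (log2 fold change -1.94 ± 0.17 SE, adjusted p = 3.36e-07, edgeR). Near-identical copies of parts of these loci may share reads, so their values are uncertain. They were named after their values were seen, apart from the 3 among the most open peaks.

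Over all genes with a start in an even peak, RNA in Exc-DG was called higher in D2 for 1015 of 7680 tested (13.2%) and lower for 1003 (13.1%), beside 22.2% and 13.8% of all symbols tested and 12.4% and 14.8% of genes of uneven peaks. DESeq2 called 399 of them higher and 654 lower, and edgeR without D2 library 3 called 574 and 660. Of 6134 pairs of an even peak and the single protein-coding gene that starts in it, 397 were called in snATAC-seq, 1610 in snRNA-seq and 143 in both. Of these 143, 74 were higher in both, 21 lower in both, 46 higher in snATAC-seq and lower in RNA, and 2 the reverse. Such pairs were not counted for uneven or all peaks. Whether 143 exceeds the overlap of unrelated calls was not tested.

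By the same rule on B6 libraries alone 10933 peaks were even and on D2 libraries alone 11378, and 8932 of the 11712 (76.3%) were even in both. A further 173 met the rule in neither strain alone. On the autosomes and the X chromosome 2.92% to 5.50% of peaks were even, and on the Y chromosome 11 of 43.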

How the data were processed

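The authors deposited whole-number counts per cell type and library for snATAC-seq peaks and snRNA-seq genes. The authors mapped snATAC-seq reads with Cell Ranger ATAC 2.0.0 and snRNA-seq reads with Cell Ranger 6.0.2 (introns kept). The genomes were mm10 (B6) or mm10 with D2 SNPs swapped in. Peaks were called with MACS per sample and merged. Nuclei were filtered, doublets removed, and nuclei annotated by integration with snRNA-seq (Seurat 4.0.5). Nuclei were not filtered on their share of blacklist peaks. The paper's stated reason is that this was removed when the SNP-swapped D2 genome was built. Sequence differences between strains can change mapping.

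Columns number the libraries 2 and 3 where the labels number replicates 1 and 2, so they were placed by strain only. Exc-DG columns served as replicates. Columns of the other cell types entered sums by group and strain only.

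Strains were compared (D2 minus B6) with edgeR 4.0.16 in R 4.3.3 (TMM, quasi-likelihood, no covariate), on peaks with at least 10 counts and symbols kept by filterByExpr (17723 of 33902). An exact permutation test of 2 against 2 cannot go below p = 0.33. The p-values measure the spread between libraries of about 2 animals each. Exc-DG libraries held 18111758 to 27815541 snATAC-seq and 7895793 to 11352265 snRNA-seq counts. The steps were tested on simulated data. DESeq2 1.42.0 was an alternative, as were RLE factors, other filters, a block for the shared number, leaving out single libraries and other limits of membership. Starts came from GENCODE vM21 (basic), tRNA genes and sequence from RefSeq's GRCm38.p6. The 43 peaks on scaffolds were left out.

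Named peaks were the 5 most open, 5 most even, 3 in each direction of the strain test with both libraries apart, 2 on each side of each limit, the 6 genes of widest RNA range and the 5 most open far from starts. Some items these rules name are not reported here. Members and lists were chosen with earlier results of these data known. Tables and figures were made in Python 3.11.15 (matplotlib 3.10.9, pandas 2.3.3, numpy 2.4.6, scipy 1.17.1). snmC-seq2 samples were not used here.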

Additional observations from a re-analysis of the deposited data

How the results depend on the processing

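The number of even peaks moved most with the scaling and the limits: 6208 with TMM-scaled groups, 19091 with a minimum of 2 CPM and 3087 with a ratio limit of 1.5, and leaving out single libraries gave 11290 to 11886. The share with a gene start was 50.0% with TMM-scaled groups, 86.2% with a minimum of 10 CPM, 57.7% with a ratio limit of 1.5, 64.9% with B6 and 68.4% with D2 libraries only, 61.6% with the 5 neuron groups only (chosen after seeing the data), 67.7% with a start within 500 and 71.7% within 2000 bases. The median CpG per kb was 29.4, 52.0, 35.4, 42.6, 44.9 and 41.2 in the same 6 memberships, and 35.5 in 2-kb windows. Each stayed above the value over all peaks, 6.18% and 10.5 CpG per kb, most of which missed 5 CPM in some group. This does not set even apart from uneven peaks. Uneven values were above the even ones with TMM-scaled groups (65.5% and 45.8 CpG per kb). They were below them with the 5 neuron groups only (34.2% and 20.3 CpG per kb).

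Calls among even peaks in Exc-DG fell from 853 to 198 with DESeq2 and ranged from 304 to 912 without single libraries (304 without B6 library 2, 378 without B6 library 3). The calls of genes with an even start peak fell from 2018 to 1053 with DESeq2 and ranged from 1234 to 1907, with the lowest without D2 library 3. Higher calls exceeded lower ones among even peaks in each of these fits, while for the genes DESeq2 called 399 higher and 654 lower. Over all peaks edgeR called 10077 higher and 7681 lower in D2 and DESeq2 2534 and 2315. The cause was not tested. The 6 named peaks kept their direction and their call in all 9 alternatives, though the Sfi1 intron peak reached a log2 fold change of 11.73 without B6 library 3, which held its 5 B6 counts.

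Library numbers did not pair the samples: the deviations of equal numbers correlated at 0.049 in snATAC-seq and -0.0531 in snRNA-seq across features. With the replicate block 924 even peaks and 2030 genes were called. Depth limits NN, where 5 CPM is few counts in a sum of 6736466.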
